A study of Mus musculus with 4 samples.

Results

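Exosomes shed by C26 cells were compared with exosomes shed by MC38 cells, both isolated from conditioned medium with ExoQuick-TC, a reagent that precipitates vesicles. C26 and MC38 are mouse colon carcinoma cell lines, and the labels say that both were grown in medium freed of exosomes. One library was made per line, so 2 of the 4 libraries of the series were used. The members are all mature miRNAs with at least 10 reads in either of these libraries, 362 of the 795 listed. Of these, 208 reached 10 reads in both libraries, 138 in C26 alone and 16 in MC38 alone. Just inside this limit lay 9 miRNAs with 10 reads and 12 with 11 in their higher library, and just outside it 7 with 9 reads and 12 with 8. Another 396 listed miRNAs had reads but fewer than 10 in both libraries, and 37 had no read in either. The members hold 99.9% of the listed reads in each library. The labels do not say how many cultures were pooled, and with 1 library a line the ratios below have no replicate check and no test.

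Exosomes are small vesicles released by cells, and the miRNAs they carry can enter other cells. A miRNA is cut from a hairpin precursor, which gives a 5p strand and a 3p strand, and usually one of them is retained while the other, the passenger, is degraded. Bases 2 to 8 of the retained strand, the seed, pair with messenger RNAs and largely decide which of them are repressed, so miRNAs with a common seed share most predicted targets. Hairpins that lie close together on one strand are often cut from a single primary transcript.

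The values are RPM, reads relative to the library total, which was 1356801 reads for C26 and 340643 for MC38. A single read was worth 0.737 RPM in C26 and 2.94 RPM in MC38. A count of 0 allows up to 3 reads, which is 2.21 RPM in C26 and 8.81 RPM in MC38. Ratios are given as C26 over MC38 with exact 95% intervals from the reads. Intervals and limits cover counting error only, because 1 library a line gives no spread between cultures or libraries. PCR copies of one molecule cannot be recognised without molecular identifiers, so the intervals may be too narrow even for counted molecules. In bulk RNA of this kind, more vesicles that carry a miRNA and more copies per vesicle cannot be told apart.

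The mature sequences below are those the results turn on: the highest miRNAs and their seed relatives, the leading differences in each direction, and relatives that went opposite ways. They are from RefSeq (GRCm38.p6), 5′ to 3′, with the seed in capitals. Of the 362 members, 304 were found in that table.
miR-130a-3p: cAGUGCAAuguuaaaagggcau
miR-130b-3p: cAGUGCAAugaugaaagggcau
miR-25-3p: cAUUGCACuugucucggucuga
miR-92a-3p: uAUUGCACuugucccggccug
miR-298-5p: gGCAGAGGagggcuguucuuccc
miR-296-3p: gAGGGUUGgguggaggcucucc
miR-214-3p: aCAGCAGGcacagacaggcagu
miR-199a-5p: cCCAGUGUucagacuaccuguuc
miR-199a-3p: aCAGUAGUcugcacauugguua
miR-142a-5p: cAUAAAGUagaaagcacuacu
miR-146a-5p: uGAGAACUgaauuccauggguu
miR-146b-5p: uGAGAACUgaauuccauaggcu
miR-211-5p: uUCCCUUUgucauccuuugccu
miR-335-5p: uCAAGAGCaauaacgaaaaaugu
miR-188-5p: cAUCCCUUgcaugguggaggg
miR-378c: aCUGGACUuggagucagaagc
miR-378d: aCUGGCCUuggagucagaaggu
miR-99a-5p: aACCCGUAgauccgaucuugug
miR-99b-5p: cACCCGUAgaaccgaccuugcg
miR-100-5p: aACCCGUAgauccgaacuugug
miR-181a-5p: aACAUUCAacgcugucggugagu
miR-181c-5p: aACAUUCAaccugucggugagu
let-7d-5p: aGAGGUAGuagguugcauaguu
let-7d-3p: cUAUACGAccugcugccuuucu

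A few miRNAs made up most of both libraries, and MC38 exosomes were the more uneven. With each distinct profile counted once, the highest miRNA took 17.7% of the reads of the members in C26 and 48.1% in MC38. The highest 10 took 68.3% and 81.8%. It took 5 miRNAs to reach 50% of these reads in C26 and 2 in MC38, and 31 and 19 to reach 90%. The effective number of miRNAs (the exponential of the Shannon entropy) was 27.02 in C26 and 11.7 in MC38.

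The seed AGUGCAA of miR-130a-3p, miR-130b-3p and miR-301a-3p, of which miR-130a is known for promoting blood vessel growth, was the most abundant in both libraries. Summed over these miRNAs, it stood at 201610 RPM in C26 and 556559 RPM in MC38, 2.76-fold lower in C26 (interval 2.74 to 2.78). miR-130a-3p alone stood at 178339 RPM in C26 and 489612 RPM in MC38. miR-130b-3p, which differs from it at 2 of 22 positions, stood at 23168 RPM in C26 and 66694 RPM in MC38. It was 13.0% of miR-130a-3p in C26 (12.8 to 13.1) and 13.6% in MC38 (13.4 to 13.8). Whether reads of these 2 were divided correctly was not tested. Their passenger strands showed smaller differences: miR-130a-5p had 77 reads in C26 and 15 in MC38, a ratio of 1.29 (0.735 to 2.41), and miR-130b-5p had 372 and 131, a ratio of 0.713 (0.583 to 0.877).

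The second seed, AUUGCAC of miR-25-3p, miR-92a-3p, miR-92b-3p and miR-32-5p, lay the other way. miR-25-3p and miR-92a-3p come from clusters that MYC and E2F factors are known to induce. Their sum was 198300 RPM in C26 and 99565 RPM in MC38, a ratio of 1.99 (1.97 to 2.01). miR-25-3p had a ratio of 1.91 (1.88 to 1.93). miR-92a-3p, at 22053 RPM in C26 and 7169 RPM in MC38, had a ratio of 3.08 (2.95 to 3.21). The largest ratio of the family was that of the much lower miR-92b-3p, at 391 and 96.9 RPM (ratio 4.04, 2.84 to 5.93), and miR-32-5p was near 1 (0.938, 0.652 to 1.38). These 2 families together made up 40.0% of the C26 library and 65.6% of the MC38 library. The let-7 guide seed GAGGUAG, of the growth-restraining let-7 miRNAs, was close to even, at 66596 RPM in C26 and 57779 RPM in MC38 (ratio 1.15, 1.14 to 1.17). Setting miR-130a-3p aside in the library totals lowers every ratio by the same factor, so that ratios below 1.61, such as this one and those of let-7b-5p and miR-24-3p, turn to below 1.

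**Figure D1:**
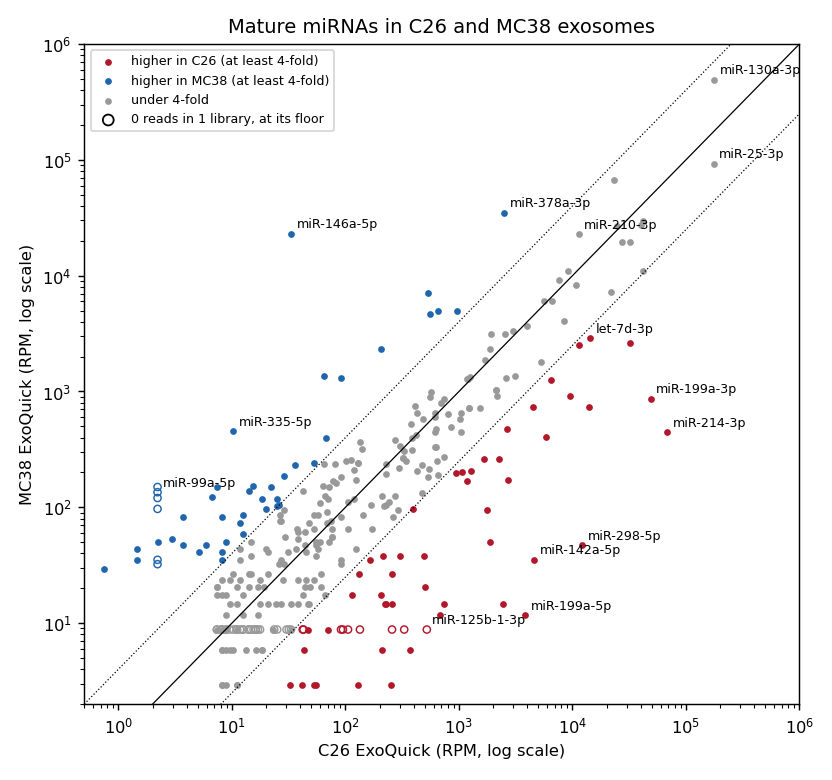
Level of each member in the C26 library (x axis, RPM, log scale) and in the MC38 library (y axis, RPM, log scale), each distinct profile shown once; the solid line marks equal levels, dotted lines mark 4-fold, and open points had 0 reads in 1 library and are drawn at its floor of 3 reads. miR-130a-3p lies at the top, while miR-214-3p and miR-199a-3p lie far to the right of the line and miR-146a-5p far above it.

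Of the 362 members, 62 (17.1%) were at least 4-fold higher in C26 and 46 (12.7%) at least 4-fold higher in MC38. Together these are 29.8% of the members, and they are the background for each count below. With miR-130a-3p set aside in the totals the split was 45 to 64. The limit of 10 reads is worth less RPM in C26 than in MC38, so members can enter at lower levels through C26. With at least the RPM worth of 10 MC38 reads in either library, 62 and 46 were past 4-fold out of 274 members, a larger share. The 62 made up 26.4% of the C26 library and 1.60% of the MC38 library. The 46 made up 0.606% of the C26 library and 8.88% of the MC38 library. The whole interval lay past 4-fold for 46 of the 62 and 32 of the 46. At 16-fold or more, 23 members were higher in C26 against 15 in MC38, and at 64-fold or more 6 and 2. Over the 305 members with reads in both libraries the median log2 ratio was 0.25, with quartiles at −0.92 and 1.47 and a range from −9.44 to 8.36. For 59 of these the interval lay wholly within 2-fold of 1. A count of 0 occurred for 51 members in MC38, of which 10 exceeded the MC38 floor by 4-fold. It occurred for 6 members in C26, all 6 of which exceeded the C26 floor by 4-fold. The read limit fixed this last count in advance, since 10 reads in MC38 already exceed the C26 floor by 4-fold. In contrast, 10 reads in C26 lie below the MC38 floor, so the 2 counts cannot be compared.

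Among the miRNAs higher in C26, those of fibroblasts and smooth muscle stood out in level. miR-214 and miR-199a are textbook miRNAs of mesenchymal cells, and miR-143 and miR-145 are those of smooth muscle. All 6 miRNAs of this marker list were at least 4-fold higher in C26, and they summed to 132821 RPM in C26 and 2463 RPM in MC38. Mir214 and one of the hairpins of miR-199a, Mir199a-2, lie in the noncoding RNA Dnm3os, while Mir199a-1, with the same mature strands, lies on chromosome 9. miR-214-3p had 68331 RPM in C26 and 443 RPM in MC38, a ratio of 154 (131 to 182.05). Its passenger miR-214-5p reached 257 RPM in C26 but had no read in MC38 and was at least 29.2-fold higher in C26. miR-199a-5p had 3857 RPM in C26 and 11.7 RPM in MC38, a ratio of 328.5 (128 to 1206), which rests on 4 reads in MC38. miR-199a-3p, whose reads are also listed under miR-199b-3p, had 49078 and 869 RPM, a ratio of 56.5 (50.4 to 63.5). miR-143-3p followed at 9542 and 919 RPM (ratio 10.4, 9.28 to 11.7) and miR-145a-5p at 1277 and 205 RPM (ratio 6.21, 4.89 to 8.01). In the much shallower Wako libraries of the same lines, isolated with a capture kit, these 6 stood far closer together. There the ratios ran from 1.19 (miR-199b-5p, on 3 reads in MC38) to 1.99 (miR-199a-5p), and the interval left 1 for miR-214-3p, miR-199a-3p and miR-143-3p. miR-214-3p had 1050 reads in C26 Wako and 87 in MC38 Wako, or 31165 and 22498 RPM. The large ratios of these markers thus hold for the ExoQuick libraries and not for the Wako libraries.

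Those markers of the tissue of origin that were listed were low in both libraries. miR-192-5p and miR-194-5p, typical of intestinal epithelium, stood at 55.3 and 20.6 RPM in C26, against 38.2 and 26.4 RPM in MC38, and neither interval left 1. Of the epithelial list only miR-203-3p was among the listed miRNAs, with 12 reads in C26 and 2 in MC38. The strands of miR-200a, miR-200b, miR-200c, miR-141, miR-429 and miR-205 on this list were not listed, so their levels are unknown. Other cell types had low sums: 138 RPM in C26 and 276 RPM in MC38 for the endothelial miR-126a strands, and 179 and 273 RPM for the neuronal list. miR-122-5p, the main miRNA of hepatocytes, stood at 413 RPM in C26 and 746 RPM in MC38. The part of serum or of other cells in these levels was not tested. The red cell miRNA miR-486a-5p stood at 213 RPM in C26 and 38.2 RPM in MC38 (ratio 5.58, 3.21 to 10.6), while miR-451a and miR-144-3p did not reach 10 reads in either library.

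Differences of similar size were found for miRNAs of the imprinted Gnas region. miR-298-5p stood at 12255 RPM in C26 and 47.0 RPM in MC38, a ratio of 261 (161 to 457). Its neighbour miR-296-3p stood at 2431 and 14.7 RPM, a ratio of 166 (70.9 to 510). The other strand, miR-296-5p, had 343 reads in C26 and 1 in MC38 (ratio 86.1, 15.4 to 3411). The hairpins Mir296 (chr2:174267047-174267125) and Mir298 (chr2:174267504-174267585) lie on the minus strand of GRCm38, where the annotation gives no host gene. miR-142a-5p, from a hairpin expressed in blood cells, stood at 4584 RPM in C26 and 35.2 RPM in MC38, a ratio of 130 (74.4 to 252). The other white cell markers were low in both libraries: miR-150-5p and miR-223-3p stood at 11.8 and 7.37 RPM in C26, against 0 and 20.55 RPM in MC38.

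The remaining leaders were lower in level. miR-222-3p, which represses the cell-cycle inhibitor Cdkn1b, stood at 1868 RPM in C26 and 49.9 RPM in MC38 (ratio 37.4, 23.3 to 64.4). miR-147-3p, known from activated macrophages, stood at 681 and 11.7 RPM (ratio 58.0, 22.6 to 213), and miR-199b-5p at 736 and 14.7 RPM (ratio 50.2, 21.4 to 155). miR-125b-1-3p, at 521 RPM in C26, had no read in MC38 and was at least 59.2-fold higher in C26. miR-669c-5p, from an intron of the Polycomb-related gene Sfmbt2, reached 329 RPM in C26 without a read in MC38, at least 37.4-fold higher in C26. Of 5 members commonly raised in colorectal tumours, 3 were past 4-fold in C26. Among these were miR-21a-5p, at 32249 RPM in C26 and 2601 RPM in MC38 (ratio 12.4, 11.6 to 13.3), and miR-31-5p, at 4475 and 740 RPM (ratio 6.05, 5.33 to 6.89).

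MC38 exosomes were set apart by miR-146a-5p, a brake on Toll-like receptor signalling that NF-kappa-B induces. It stood at 33.2 RPM in C26 and 22983 RPM in MC38, 693-fold lower in C26 (517 to 951), the largest difference of all members with reads in both libraries. Its relative miR-146b-5p, from another chromosome and with the same seed, stood at 551 RPM in C26 and 4647 RPM in MC38, 8.43-fold lower in C26 (7.72 to 9.21). miR-146b-5p was therefore the main source of this seed in C26 exosomes and the minor one in MC38 exosomes. miR-155-5p, also induced by NF-kappa-B, had 22 reads in C26 and 0 in MC38 and did not reach 4-fold against the floor.

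All 5 listed miRNAs of the miR-378 family, whose main hairpin lies in the mitochondrial coactivator gene Ppargc1b, were at least 4-fold lower in C26. miR-378a-3p stood at 2498 RPM in C26 and 35078 RPM in MC38, 14.04-fold lower (13.5 to 14.6). Its passenger miR-378a-5p, with a sequence of its own, stood at 36.1 and 232 RPM, 6.42-fold lower (4.44 to 9.37). miR-378c, at 537 RPM in C26 and 7028 RPM in MC38, was 21.5% of miR-378a-3p in C26 and 20.04% in MC38. miR-378b was 8.20% of it in C26 and 6.69% in MC38. The sequences of miR-378b and miR-378c share a run of 19 bases, so how reads were divided among these entries is uncertain. miR-378d was 21.05-fold lower in C26 (16.7 to 26.7), at 64.9 and 1365 RPM.

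Further miRNAs were read mainly in MC38. Both strands of miR-211, whose hairpin sits within Trpm1, a gene of melanocytes, had 0 reads in C26. In MC38 miR-211-5p stood at 120 RPM and miR-211-3p at 150 RPM, at least 54.4-fold and 67.7-fold lower in C26. miR-335-5p, from an intron of the imprinted gene Mest, stood at 10.3 RPM in C26 and 455 RPM in MC38, 44.1-fold lower in C26 (25.5 to 82.5). miR-582-5p, from an intron of Pde4d, stood at 6.63 and 123 RPM, 18.6-fold lower (8.92 to 43.4), and its partner miR-582-3p at 0 and 96.9 RPM. miR-184-3p, abundant in lens and cornea, stood at 7.37 and 150 RPM, 20.3-fold lower (10.2 to 44.9). miR-188-5p, from an intron of the chloride channel gene Clcn5, stood at 90.7 and 1303 RPM, 14.4-fold lower (11.7 to 17.7).

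**Figure D2:**
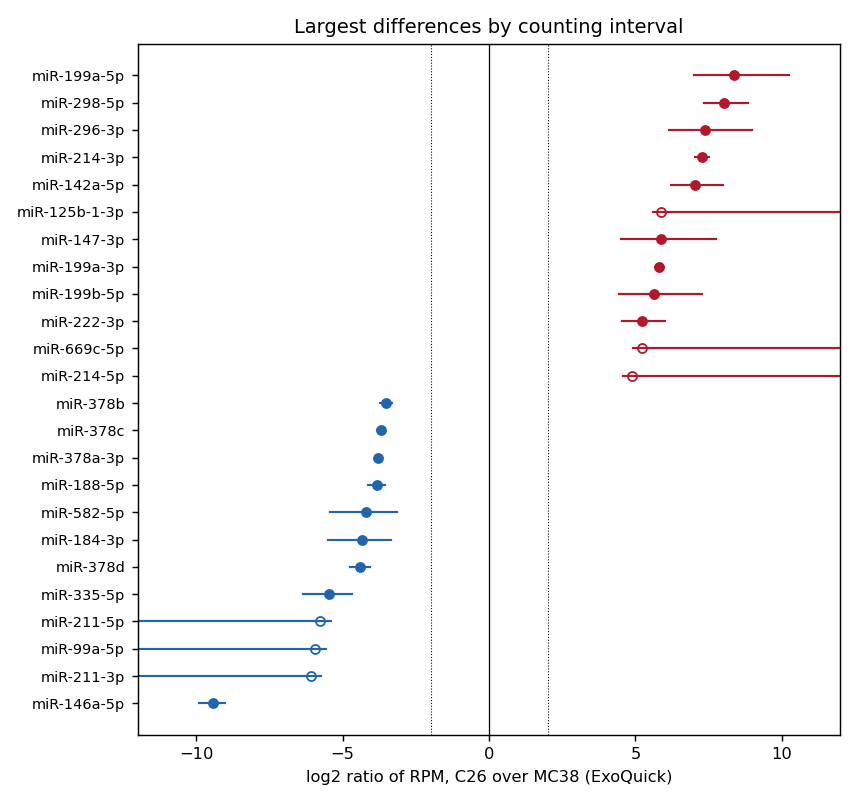
Log2 ratio of RPM, C26 over MC38, for the 12 miRNAs per direction whose interval lies farthest from equality among those with at least 100 RPM in the higher library; points are ratios, lines exact 95% intervals, dotted lines 4-fold, and open points are drawn against the floor of a library with 0 reads. The intervals of all 24 miRNAs lie past 4-fold, with miR-199a-5p at the top and miR-146a-5p at the bottom.

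For the 9 of the 12 leaders in C26 that had reads in both libraries, the MC38 reads equalled 0.0764% (miR-199a-5p) to 0.671% (miR-222-3p) of the C26 reads. The origin of these few MC38 reads was not tested. The Wako libraries, of 33692 reads for C26 and 3867 for MC38, give smaller ratios for each C26 leader that had reads in both of them. The Wako interval lay above 1 for 4 of the 12 C26 leaders (miR-214-3p, miR-296-3p, miR-199a-3p and miR-222-3p), and for 8 it held 1. The 8 Wako ratios that could be formed for C26 leaders ran from 0.592 to 4.21, and the 6 for MC38 leaders from 0.0689 to 0.459. Of the 12 MC38 leaders, the Wako interval lay below 1 for 3 (miR-146a-5p, miR-211-5p and miR-378a-3p) and held 1 for 9. For none of the 24 did it lie on the opposite side, but for many it could not. This holds for the 4 C26 leaders without a read in MC38 Wako and the 5 MC38 leaders without a read in C26 Wako. A single read was worth 29.7 RPM in C26 Wako and 259 RPM in MC38 Wako, so the count is no check of direction between the kits.

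Abundant miRNAs at nearly equal level were also found. Of 36 members with at least 1000 RPM in both libraries, 11 lay within 1.2-fold of each other, while 4 were at least 4-fold higher in C26 and 1 in MC38. The nearest to 1 was miR-17-5p, the leading miRNA of the MYC-induced miR-17~92 cluster, at 5638 RPM in C26 and 6003 RPM in MC38 (ratio 0.939, 0.894 to 0.987). miR-423-5p was the most abundant of them, at 24513 and 26779 RPM (ratio 0.915, 0.894 to 0.937). miR-103-3p and miR-107-3p, which lie in introns of the pantothenate kinase genes, had ratios of 0.935 and 0.917. miR-34a-5p, a p53 target, stood at 6537 and 6077 RPM (ratio 1.08, 1.03 to 1.13), and miR-322-5p at 3942 and 3649 RPM (ratio 1.08, 1.02 to 1.15). With miR-130a-3p set aside in the totals, these ratios too fall by the factor of 1.61 and no longer lie near 1.

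Ratios within one hairpin cluster lay closer together than ratios at large. Clusters were taken as hairpins on one strand whose neighbours lie within 10 kb, and kept where their members came from at least 2 hairpins. Members with hairpins in several clusters, such as the miR-199a strands, were left out. They were 23 of the members with reads in both libraries, each profile counted once. The pair of Mir214 and Mir199a-2 is therefore not among the clusters. Of 23 clusters with at least 3 members, 16 held members past 4-fold in 1 direction, 7 held none, and 0 held members past 4-fold in both directions. Members with reads in both libraries, 93 in all, had an SD of the log2 ratios of 1.10 within clusters of at least 2 such members, against 2.43 without regard to cluster. This SD also leaves out members with 0 reads in a library, among them all 7 of the cluster in an intron of Sfmbt2. With such members at the floor the SD was 1.30 within clusters and 2.33 without regard to them, over 112 members. These members include both strands of one hairpin and share their primary transcript, so they are not independent.

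The cluster in an intron of Clcn5 (chrX:7237683-7248497, minus strand) ran furthest towards MC38. Of its 8 members, 7 were at least 4-fold lower in C26, with a median log2 ratio of −3.01 and a range from −4.90 to −1.71. miR-532-5p was its most abundant miRNA, at 954 RPM in C26 and 4947 RPM in MC38, 5.19-fold lower (4.82 to 5.58). On the C26 side, all 3 members from Mir296 and Mir298 and all 4 from the p53-responsive cluster of miR-34b and miR-34c were past 4-fold. miR-34c-5p stood at 2270 RPM in C26 and 261 RPM in MC38, a ratio of 8.69 (7.04 to 10.9), and miR-34b-5p at 495 and 38.2 RPM, a ratio of 13.0 (7.54 to 24.5). Their seed relative miR-449a-5p, from another cluster, rested on 2 reads in MC38 (ratio 36.0, 9.88 to 299). The relative miR-34a-5p was near 1, as given above.

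The collagen-repressing miR-29 family leaned to C26, with miR-29a-3p at 11520 RPM in C26 and 2513 RPM in MC38 (ratio 4.58, 4.28 to 4.92) and miR-29b-3p at 2627 and 473 RPM (ratio 5.56, 4.75 to 6.55). miR-29c-3p had a ratio of 3.46 (2.69 to 4.52). In contrast, 0 of 6 members of the miR-106b~25 cluster in Mcm7, 0 of 4 of the miR-191/425 cluster and 0 of 9 let-7 guide strands were past 4-fold. In the large X-linked cluster of miR-322, miR-503, miR-351, miR-450 and miR-542, 1 of 10 members was past 4-fold, lower in C26. Over the X chromosome as a whole, 3 of 40 members were higher in C26 and 10 higher in MC38. Of these 10, 7 are those of the Clcn5 cluster already given.

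**Figure D3:**
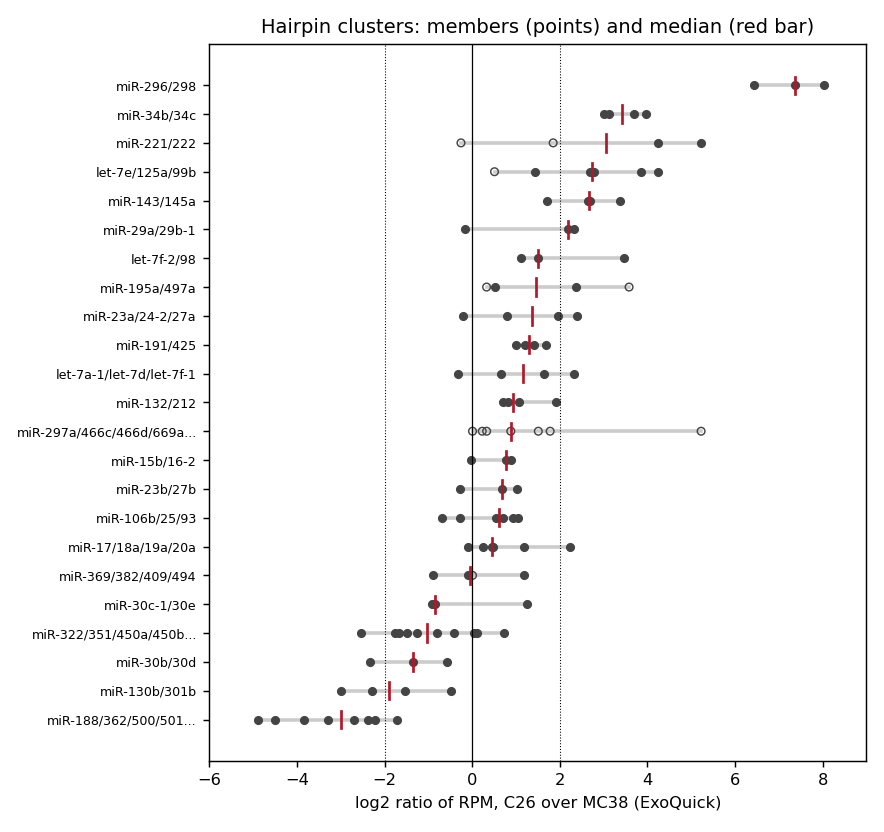
Log2 ratio of RPM, C26 over MC38, of the members (points, open where 1 library had 0 reads) of the 23 hairpin clusters with at least 3 members, sorted by median (red bar); grey bars span the range and dotted lines mark 4-fold. No cluster has members past both dotted lines, and the cluster of miR-296 and miR-298 (median 7.37) and that of Clcn5 (median −3.01) lie at the ends.

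Relatives with the same seed but different hairpins went opposite ways in some families. The miR-99/100, let-7 and miR-125 miRNAs lie in 3 similar regions on chromosomes 9, 16 and 17, which on chromosomes 9 and 16 reach beyond the 10 kb limit used for clusters. Arms that belong to the chromosome 17 region were higher in C26: miR-99b-5p stood at 5831 RPM in C26 and 402 RPM in MC38 (ratio 14.5, 12.2 to 17.3), and miR-125a-5p at 1784 and 93.9 RPM (ratio 19.0, 13.4 to 27.8). From the chromosome 9 region, miR-100-5p had 75 reads in C26 and 1 in MC38 (ratio 18.8, 3.28 to 754), and miR-125b-1-3p was read in C26 alone. Arms of the chromosome 16 region were lower in C26. There miR-99a-5p had no read in C26, against 46 in MC38, and was at least 61.1-fold lower in C26, miR-99a-3p had 1 and 10 reads, and miR-125b-2-3p had 4 and 18. The mature miR-125b-5p, which hairpins of chromosomes 9 and 16 both give, stood at 2717 RPM in C26 and 173 RPM in MC38 (ratio 15.7, 12.1 to 20.6).

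The miR-181 family, known from lymphocyte development, had a near-equal sum and members that differed in opposite directions. Its 4 miRNAs summed to 311 RPM in C26 and 305 RPM in MC38. miR-181c-5p stood at 222 RPM in C26 and 14.7 RPM in MC38 (ratio 15.1, 6.405 to 46.9), and miR-181d-5p from the same cluster had 72 reads in C26 and 1 in MC38. miR-181a-5p had 19 reads in C26 and 47 in MC38, 9.85-fold lower in C26 (5.67 to 17.8), and miR-181b-5p stood at 22.1 and 150 RPM, 6.77-fold lower (4.23 to 11.01). As printed above, miR-181a-5p and miR-181c-5p share the seed, and their hairpins lie on different chromosomes.

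A similar case was miR-129, a miRNA of brain and endocrine tissues with hairpins on chromosomes 2 and 6. Its shared 5p strand was near even, at 2982 RPM in C26 and 3297 RPM in MC38 (ratio 0.905, 0.846 to 0.967). The 3p strands, which tell the hairpins apart, were not: miR-129-2-3p stood at 205 RPM in C26 and 17.6 RPM in MC38 (ratio 11.6, 5.28 to 32.0), while miR-129-1-3p had 5 reads in C26 and 28 in MC38 (ratio 0.0448, 0.0135 to 0.118). For miR-24, the 5p strand of the hairpin beside miR-23a was the main one in both libraries, with 1145 reads of miR-24-2-5p in C26 and 167 in MC38, against 7 and 3 of miR-24-1-5p. These pairs were chosen after their values were seen.

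**Figure D4:**
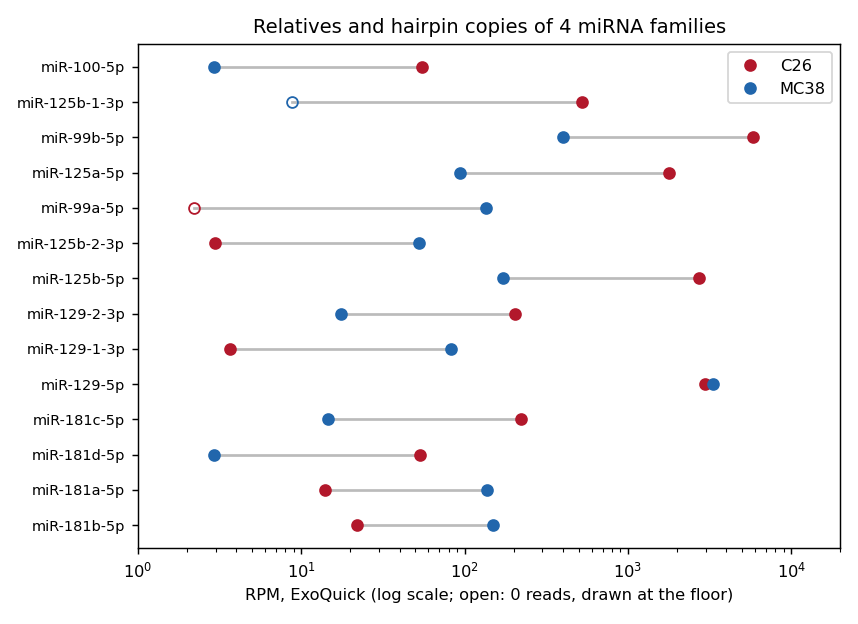
Levels in C26 (red) and MC38 (blue) on a log axis of RPM for relatives in the miR-99/100, miR-125, miR-129 and miR-181 families; open points had 0 reads and are drawn at the floor of 3 reads. Red lies right of blue for the arms of chromosomes 9 and 17, miR-129-2-3p, miR-181c-5p and miR-181d-5p, and left of it for miR-99a-5p, miR-125b-2-3p, miR-129-1-3p, miR-181a-5p and miR-181b-5p.

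Summed over seeds, 122 seed families reached 100 RPM in either library. Only members with a sequence found in RefSeq were summed, so some sums are partial. The seed of miR-378c, for example, was counted without miR-378a-3p. Of these, 30 (24.6%) were at least 4-fold higher in C26 and 17 (13.9%) at least 4-fold higher in MC38. The miR-93-5p seed AAAGUGC of the miR-17 relatives stood at 38342 RPM in C26 and 26162 RPM in MC38, a ratio of 1.47 (1.43 to 1.499). The median GC content was 50% among members higher in C26, among those higher in MC38 and among all. The motif GGAG, searched on the printed strand, occurred in 8 of 50 members higher in C26 (16%) and in 10 of 37 higher in MC38 (27.03%). Among all 297 members searched it occurred in 40 (13.5%). The 10 include the close relatives miR-378b, miR-378c and miR-378d, so these entries are not independent. The motif CCCU occurred in 16%, 10.8% and 12.1% of the same groups.

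The use of the hairpin arms, which needs no library total, was mostly shared. Among 96 hairpins with at least 20 reads over both arms in each library, the same arm was in the majority in both for 89, and the median difference in the 5p share was 2.69 percentage points. The ratio of 5p to 3p reads differed by at least 4-fold between the libraries for 21 hairpins (21.9%), and the whole interval lay past 4-fold for 3. These were miR-142a, let-7d and miR-328. An arm with 0 reads was set at 3 reads, and some of the 21 hairpins passed only through this floor. Among them was miR-190b, with 94 reads of 5p and 1 of 3p in C26, and 31 and 0 in MC38. With 0.5 read added to every arm instead, 19 hairpins were past 4-fold, not all of them the same.

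miR-142a gave 98.9% 5p reads in C26 (98.6 to 99.1) and 60.0% in MC38 (36.1 to 80.9). In C26 there were 6219 reads of miR-142a-5p and 72 of miR-142a-3p, against 12 and 8 in MC38, so the large ratio of miR-142a-5p given above was not shared by its 3p strand (ratio 2.26, 1.09 to 5.43). let-7d was the reverse, with 11.5% 5p reads in C26 (11.1 to 11.98) and 44.9% in MC38 (42.6 to 47.3). Its guide let-7d-5p stood at 1878 RPM in C26 and 2343 RPM in MC38, a ratio of 0.802 (0.740 to 0.869), while let-7d-3p stood at 14387 and 2871 RPM (ratio 5.01, 4.70 to 5.35).

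miR-328 gave 2.84% 5p reads in C26 and 19.8% in MC38, miR-342 gave 6.31% and 29.6%, and miR-23a gave 1.74% and 7.29%. In each of these the 3p strand was the main one in both libraries. miR-351 changed its main strand, with 63.9% 5p reads in C26 (57.7 to 69.8) and 22.99% in MC38 (16.96 to 29.96). miR-351-5p was level at 120 RPM in C26 and 117 RPM in MC38, and miR-351-3p stood at 67.8 and 393 RPM, 5.80-fold lower in C26 (4.42 to 7.65). Of the other hairpins whose majority arm differed, miR-125a gave 51.6% 5p reads in C26 and 26.4% in MC38.

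**Figure D5:**
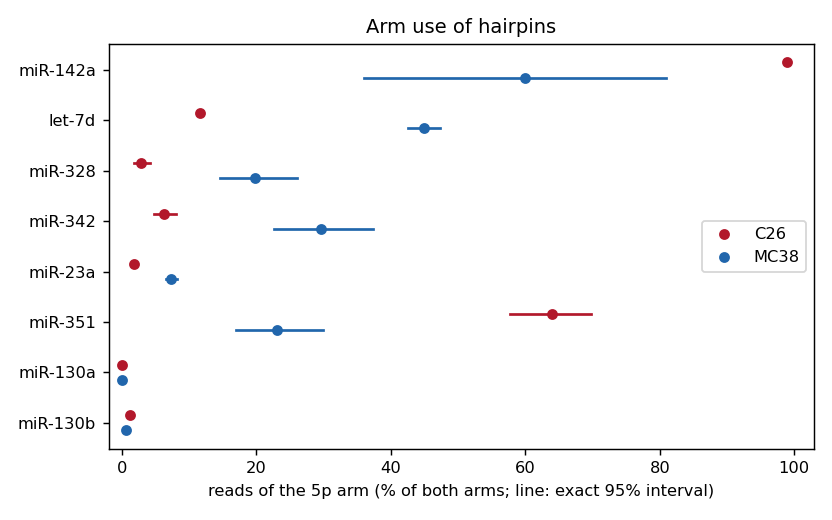
Share of 5p reads among both arms of a hairpin (percent) in C26 (red, upper point) and MC38 (blue, lower point), with exact 95% intervals as lines, for the 6 hairpins whose arm ratio interval lies farthest from 1 and, below them, miR-130a and miR-130b. miR-142a and miR-351 have the higher 5p share in C26, and let-7d, miR-328, miR-342 and miR-23a in MC38.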

How the data were processed

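Exosomes came from conditioned medium of each line, and their small RNA was sequenced on an Illumina platform, per the labels. The table the authors deposited holds 1 normalized signal value per mature miRNA and library. DESeq2 is named in the submitters' processing notes, while for the aligner, the miRNA release and the genome build the sources used here give nothing. Within a column, 100% of the values are whole multiples of 1 step within 0.006, so whole reads and library totals were recovered and the values read as RPM. The listed values sum to more than the total, and 30 members share their whole profile with another listed miRNA. Whether the excess comes from reads that match several miRNAs and stand under each was not tested.

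Ratios carry exact conditional 95% intervals (scipy 1.17.1, Python 3.11.15). A library with 0 reads was set at 3 reads. No count test was made, since 1 library a line leaves no residual degrees of freedom, and edgeR 4.0.16 in R 4.3.3 served only for TMM scaling. Ratio intervals and read recovery were tested on simulated data. Hairpin positions and sequences were matched by name in RefSeq and GENCODE annotation of GRCm38. Named were the 10 highest members, the 12 per direction with at least 100 RPM in the higher library and the interval farthest from 1, 6 hairpins by the same limit of the arm ratio, the leading seed families, list members and the 10 nearest to 1. The members and the 32 lists were chosen with earlier results of these data known. Alternatives were other scalings, read minimums, floors and cluster distances.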

Additional observations from a re-analysis of the deposited data

Results flagged for a closer look

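For the most abundant let-7 member and for miR-25-3p, the ratio of C26 to MC38 lay on opposite sides of 1 in the ExoQuick and the Wako libraries, with both intervals apart from 1. let-7b-5p had a ratio of 1.43 (1.40 to 1.46) with ExoQuick and 0.841 (0.749 to 0.946) with Wako. miR-25-3p had a ratio of 1.91 (1.88 to 1.93) with ExoQuick and 0.660 (0.593 to 0.736) with Wako. With miR-130a-3p set aside in the ExoQuick totals, the log2 ratio of let-7b-5p was −0.17, while that of miR-25-3p was 0.24. The Wako ratios given are those with the full totals. Each rests on 1 library per line and kit, and the difference between the kits was not tested.

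The miRNAs miR-5100, miR-3963, miR-27a-5p and miR-3968, outside the ExoQuick comparison and each with fewer than 10 reads in both ExoQuick libraries, had at least 10 reads in the C26 Wako library. miR-5100 had 83 reads in C26 Wako (2463 RPM) and 1 in MC38 Wako. miR-3963 had 25 reads in C26 Wako (742 RPM) and 0 in MC38 Wako. miR-27a-5p had 11 reads in C26 Wako (326 RPM) and 0 in MC38 Wako. miR-3968 had 15 reads in C26 Wako (445 RPM) and 4 in MC38 Wako (1034 RPM).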

How the results depend on the processing

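No paired analysis was possible because each line had 1 ExoQuick library, and leaving out a library would leave nothing to compare. The 62 members past 4-fold in C26 became 29 when 10 reads were required in both libraries and 102 when 0.5 read was added in place of the floor. The 46 past 4-fold in MC38 became 30 with 10 reads in both libraries, 18 with at least 50 reads in either and 230 with no read minimum. The 230 include miRNAs that were read in C26 alone, because 0 reads in MC38 were set at 3 reads. let-7a-2-3p, with 1 read in C26 and 0 in MC38, is an example. The median log2 ratio of 0.25 became −0.44 with miR-130a-3p set aside in the totals, 0.55 with at least 50 reads and −0.20 with no minimum. Of hairpins with an arm ratio past 4-fold, 12 of 59 were left with at least 100 reads over both arms, and 3 with the whole interval past 4-fold. Of the seed families, 21 of 48 were past 4-fold at 1000 RPM or more. Of 24 lists, 13 had a median above 0, and 7 with miR-130a-3p set aside. The 4 other scalings moved every log2 ratio by the same amount: −0.05 (sum of listed reads), −0.17 (TMM), −0.25 (median ratio) and −0.69 (without miR-130a-3p). Shifts of this size cannot turn a 4-fold difference around, so that no member past 4-fold changed direction was fixed in advance. The SD within clusters was 1.13 at a distance of 50 kb, 0.90 with 10 reads in both libraries and, in an alternative chosen after seeing the data, 1.30 with members at 0 reads set at the floor. In MC38, depth limits what can be seen: 8 members with 0 reads there stand below its floor in C26.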
